A study of Homo sapiens with 9 samples.

Results

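The genes described are the 38 that encode the constitutive proteasome, the standard form of the cell's main protein-degrading machine, with a few of its dedicated helpers. They were chosen by symbol from the count table, with the immunoproteasome subunits left out, and make up 38 of 67140 listed genes. By role they are 7 genes of the 20S alpha ring, 7 of the 20S beta ring, 6 ATPases and 4 non-ATPase subunits of the 19S base, 8 genes of the 19S lid, 4 assembly chaperones and 2 activators. RNA was measured by sequencing in DMS273, an established human small cell lung cancer line, in 3 genotypes with 3 libraries each. In the ATG7/SQSTM1 KO cells both genes had been targeted with the CRISPRv2 vector, in the ATG7 KO cells only ATG7 had been, and the control cells, labelled WT, carried a scrambled guide. All groups share the line, the vector system, the RPMI-based medium with serum and the rRNA-depleted total RNA library. The labels do not say whether a group is 1 clone or a pool of cells, nor whether its libraries come from separate cultures. Where they do not, a p-value speaks only of how far these particular samples scatter, and that scatter may be technical.

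The proteasome degrades proteins that carry ubiquitin chains. Its 20S core is a barrel of alpha rings, which gate the entry, and beta rings, which hold the peptidase sites; the 19S regulatory particle binds ubiquitin, removes it and threads the substrate into the core with a ring of ATPases. Autophagy is the cell's other large route of protein degradation: ATG7 is the enzyme that drives the lipidation of LC3-family proteins on the growing autophagosome, and SQSTM1 (p62) is a receptor that brings ubiquitinated cargo to it. In many cells the transcription of proteasome genes is raised together by the factor NFE2L1 (NRF1) when proteasome activity falls.

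The libraries held 28675576 to 34222098 counts. ATG7 averaged 10.6 ± 0.550 in ATG7/SQSTM1 KO, 11.7 ± 1.52 in ATG7 KO and 27.1 ± 0.901 in control libraries, in CPM, the library-size-normalised read count after scaling by the trimmed mean of M-values (SD, n = 3 each). SQSTM1 averaged 51.9 ± 3.29 CPM in ATG7/SQSTM1 KO, 391 ± 4.47 CPM in ATG7 KO and 376 ± 3.53 CPM in control libraries, so both targeted RNAs were lower where the labels say they were targeted. Of 8 neuroendocrine markers of this tumour type, NEUROD1 had 190.2 to 198 CPM in control libraries. The summed neuroendocrine markers were at 489.8 to 497 CPM in ATG7/SQSTM1 KO, 165 to 169.7 CPM in ATG7 KO and 456 to 470.5 CPM in control libraries. All 8 fell in ATG7 KO against control. The list was divided in ATG7/SQSTM1 KO against control, with 3 genes called higher and 3 lower, where 19% of all tested genes were called higher and 19.6% lower. The higher ones were NEUROD1 (log2 0.29), SYP (0.28) and ENO2 (0.37), the lower ones NCAM1 (-0.85), INSM1 (-0.28) and CHGB (-0.24). The 5 fibroblast markers summed to 186 to 194 CPM in ATG7/SQSTM1 KO, 340.3 to 369 CPM in ATG7 KO and 107 to 119 CPM in control libraries. Single markers did not all follow that sum. In ATG7/SQSTM1 KO against ATG7 KO, LUM (log2 -1.05) and COL1A1 (-1.50) were lower, DCN (0.62) and PDGFRA (1.16) higher, and COL1A2 was not called. PDGFRA was also not called in ATG7 KO against control (log2 -0.039). The 4 blood cell markers summed to 1.68 to 2.48 CPM in ATG7/SQSTM1 KO, 6.67 to 7.68 CPM in ATG7 KO and 2.04 to 2.69 CPM in control libraries, with CD3E at 0 in every library. The 3 airway and squamous markers summed to 2.64 to 2.93 CPM in ATG7/SQSTM1 KO, 8.997 to 9.36 CPM in ATG7 KO and 3.05 to 3.52 CPM in control libraries, with SCGB1A1 at 0 in every library. That sum was nearly all TP63, which averaged 9.13 CPM in ATG7 KO and 3.14 CPM in control libraries. KRT5 averaged 0.077 CPM in ATG7 KO and 0.18 CPM in control libraries and was not tested. Mitochondrially encoded RNA took 5.08% to 6.04% of counts in ATG7/SQSTM1 KO, 3.87% to 4.93% in ATG7 KO and 4.48% to 5.5% in control libraries. The part of these differences in the proteasome results was not tested, and in bulk RNA fewer cells of a type and less RNA per cell cannot be told apart.

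Across the 38 genes, proteasome RNA was highest in ATG7 KO cells and lowest in ATG7/SQSTM1 KO cells. The summed level was 8484, 8477 and 8680.5 CPM in ATG7/SQSTM1 KO libraries, 10704, 10654 and 10416 CPM in ATG7 KO libraries and 9564, 9400 and 9827 CPM in control libraries, so the groups did not overlap. As a share of all counts, the 38 genes took 0.850% to 0.875% in ATG7/SQSTM1 KO, 1.02% to 1.05% in ATG7 KO and 0.951% to 0.993% in control libraries. PSMB4 and PSMD4 alone gave 38.04% to 39.1% of the genes' counts in ATG7/SQSTM1 KO, 31.1% to 31.5% in ATG7 KO and 38.3% to 39.1% in control libraries. Without that pair the sum was 5246, 5252 and 5284 CPM in ATG7/SQSTM1 KO, 7376, 7301 and 7139 CPM in ATG7 KO and 5856, 5803 and 5988 CPM in control libraries, a wider gap between ATG7 KO and control than with them.

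All 38 genes passed the filter on low counts and were tested with edgeR's quasi-likelihood test, with Benjamini-Hochberg adjustment over all 18847 genes tested and a threshold of 0.05. In ATG7 KO against control, 32 proteasome genes rose and 2 fell, where 28.4% of all tested genes were called higher and 28.3% lower. Their median log2 change was 0.29, against a median of -0.017 over all tested genes. In ATG7/SQSTM1 KO against control, 28 fell and 4 rose, where 19.6% of all tested genes were called lower and 19% higher. The median was -0.17 for the proteasome genes and -0.0080 for all tested genes. In ATG7/SQSTM1 KO against ATG7 KO, 35 fell, where 29.9% of all tested genes were called lower and 30.5% higher. In that comparison edgeR called 0 proteasome genes higher, also at an unadjusted p under 0.05, and DESeq2 called 0; the median was -0.48, against 0.019 over all tested genes. The comparisons share their samples in pairs, so they are not independent of each other. The changes were small in size: the log2 change of single genes ran from -0.18 to 0.57 in ATG7 KO against control, from -0.48 to 0.20 in ATG7/SQSTM1 KO against control and from -0.92 to 0.01 in ATG7/SQSTM1 KO against ATG7 KO. The 4 rises in ATG7/SQSTM1 KO against control were the least firm of these counts, with 2 left without control replicate 2, without ATG7/SQSTM1 KO replicate 2 or without ATG7/SQSTM1 KO replicate 3.

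**Figure D1:**
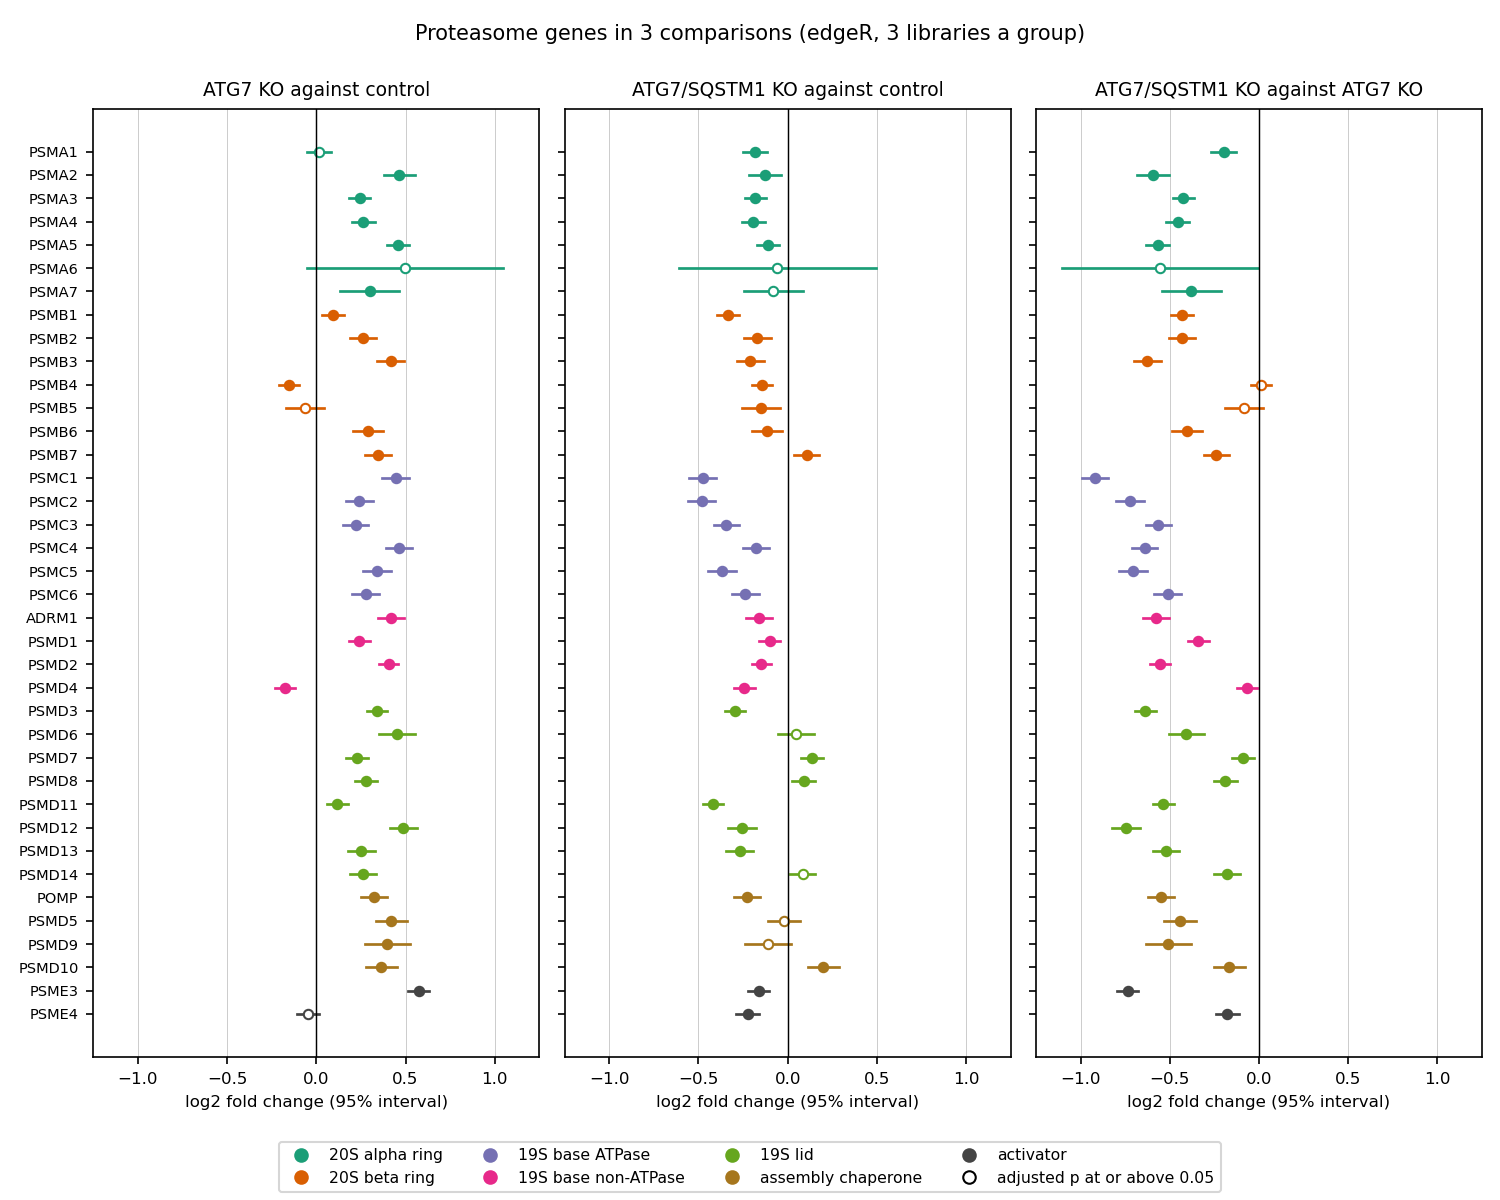
Log2 fold change of each of the 38 proteasome genes in the 3 comparisons, with 95% intervals from the edgeR fit; colours mark the subcomplex and open symbols an adjusted p at or above 0.05. In ATG7 KO against control 32 genes lie to the right of 0 past the threshold, in ATG7/SQSTM1 KO against ATG7 KO 35 lie to the left, and PSMA6 has by far the widest intervals.

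**Figure D2:**
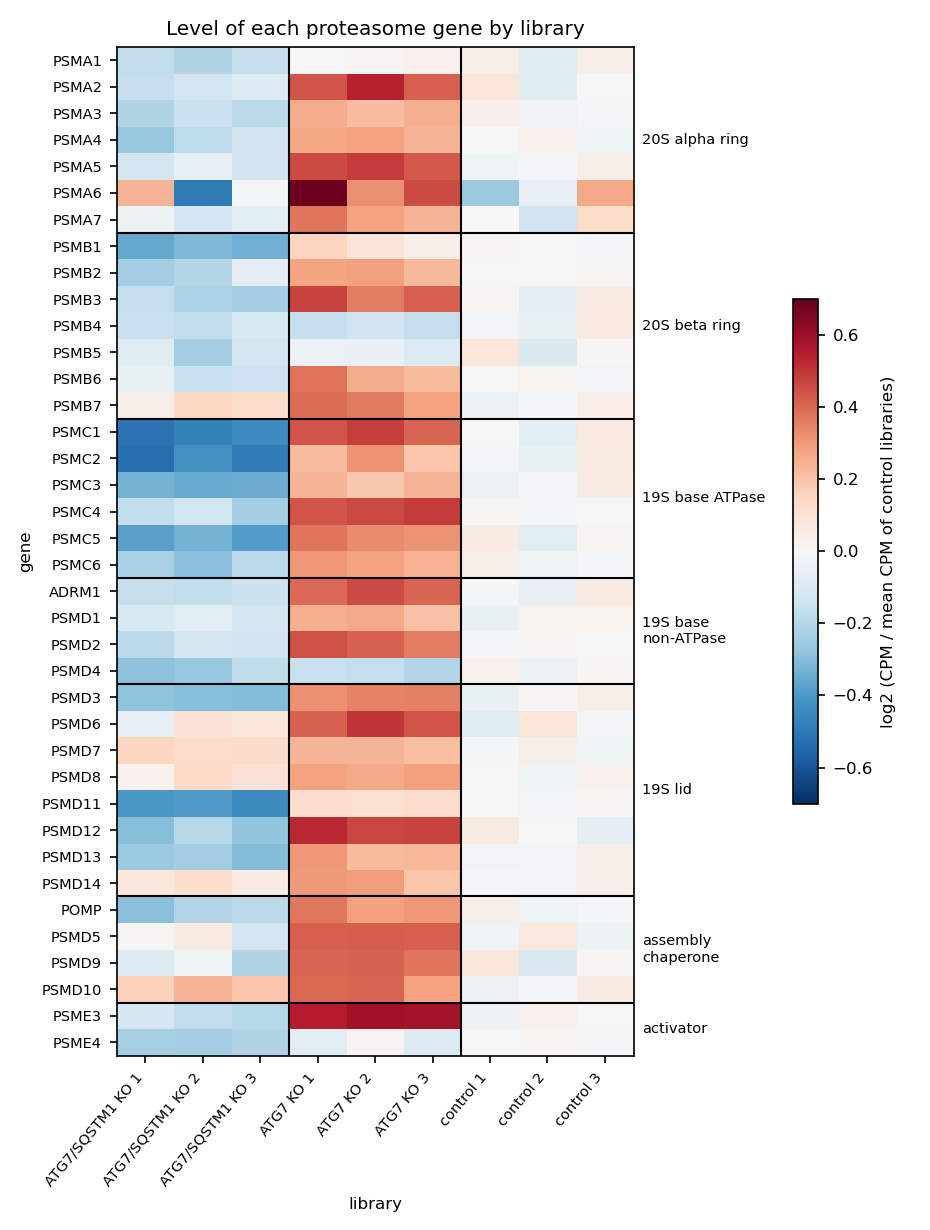
Level of each proteasome gene in each of the 9 libraries, as log2 of its CPM over the mean CPM of the control libraries, with the subcomplexes separated by lines. The 3 ATG7 KO libraries are red for nearly all genes except PSMA1, PSMB4, PSMB5, PSMD4 and PSME4, while the ATG7/SQSTM1 KO libraries are blue for most genes and PSMA6 varies within every group.

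Because most of the genes moved together, their promoters were searched for short motifs. RefSeq promoter sequence (GRCh38.p14, 250 bases before to 50 after the annotated start) was at hand for 33 of the 38 genes, in 40 sequences; PSMA7, PSMB1, PSMB6, PSMB7 and PSMD4 had none in the table. The antioxidant response element core TGACNNNGC, to which NFE2L1 and its relatives bind, was found on either strand in 11 of the 33 genes (33.3%), against 16.1% of the 27305 genes in the table. Sequences around it are shown for 6 genes that rose in ATG7 KO cells and for PSME4, which was not called there, with 20 flanking bases on each side and the match in capitals. They are written on the gene's strand: PSMA4 at chr15:78540640-78540688 (+), PSMB3 at chr17:38752617-38752665 (+), PSMD3 at chr17:39980750-39980798 (+), PSMD12 at chr17:67366714-67366762 (-), PSMD5 at chr9:120843028-120843076 (-), ADRM1 at chr20:62302739-62302787 (+) and PSME4 at chr2:53970999-53971047 (-).
PSMA4: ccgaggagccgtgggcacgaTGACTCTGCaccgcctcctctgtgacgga
PSMB3: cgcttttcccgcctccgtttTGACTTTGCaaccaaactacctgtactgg
PSMD3: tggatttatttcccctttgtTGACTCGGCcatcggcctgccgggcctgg
PSMD12: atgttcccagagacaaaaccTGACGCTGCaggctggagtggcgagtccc
PSMD5: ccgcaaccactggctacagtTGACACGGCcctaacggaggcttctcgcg
ADRM1: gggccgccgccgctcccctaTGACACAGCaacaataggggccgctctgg
PSME4: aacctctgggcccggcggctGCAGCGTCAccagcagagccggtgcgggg
In these windows the match starts 126 bases before the start site in PSMA4, 104 in PSMB3, 37 in PSMD3, 165 in PSMD12, 134 in PSMD5 and 137 in ADRM1, all reading along the gene. For ADRM1 a second annotated start was listed, and the same match lies 238 bases before that start. In PSME4 the match lies 34 bases before the start and reads on the opposite strand, so the capitals show its reverse complement. The other 4 genes with a match are PSMC4, PSMC5, PSMD1 and PSMD9, and their matches are placed differently. PSMC5's match reads on the opposite strand, 57 bases before the start, and PSMC4's also does, at base 28 after it. PSMD1's match reads along the gene at base 40 after the start. PSMD9 has 1 match on each strand, 102 and 149 bases before the start. PSMD3 has a second match, on the opposite strand at base 34 after the start. The 6 genes shown thus do not stand for all genes that rose with a match. Of the 11 genes with the core 10 rose in ATG7 KO against control, and of the 22 searched genes without it 18 rose, so most genes rose with and without these letters in the window.

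In all, 11 motifs were searched on both strands, chosen with earlier results of these data known. The ETS-factor site CCGGAAG was in 39.4% of the 33 genes and 12.2% of all genes, and its shorter core GGAAG, which it contains, in 87.9% and 75.4%. The CCAAT box, bound by NF-Y, was in 54.5% of the 33 genes and 39.7% of all genes, and the GC box GGCGGG, bound by SP factors, in 72.7% and 48.3%. The wider core TGANNNNGC, which includes TGACNNNGC, was in 63.6% and 47.1%. The E-box CACGTG was in 9.09% and 8.77%, CATTGG in 9.09% and 15%, and TGACGCA in 3.03% and 2.96%. TGACTCAGC was in none of the 33 genes and 0.689% of all genes, and TGACGTCA in none and 2.25%. Such matches describe the letters in a window of 300 bases, not binding.

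In the alpha ring, whose N-terminal tails form the gate of the core, 5 of 7 genes rose in ATG7 KO against control, with a median log2 change of 0.30 over the 7. PSMA2 had 158, 162 and 166.9 CPM in ATG7/SQSTM1 KO libraries, 241, 258 and 237 CPM in ATG7 KO libraries and 188, 167.1 and 177 CPM in control libraries. Every ATG7 KO library lay above every other, and every ATG7/SQSTM1 KO library below every control library, the nearest only just. The log2 change of PSMA2 was 0.47 (SE 0.042, adjusted p 1.10e-07) in ATG7 KO against control and -0.13 (SE 0.042, adjusted p 0.0235) in ATG7/SQSTM1 KO against control by edgeR. The second call was lost, at log2 changes of -0.13 to -0.08 and adjusted p of 0.0629 to 0.143, without control replicate 1, without control replicate 3, or without ATG7/SQSTM1 KO replicate 1 or 2, and with the replicate number as a block (log2 -0.13, adjusted p 0.0728). PSMA5, PSMA3, PSMA4 and PSMA7 also rose in ATG7 KO cells, with log2 changes of 0.46, 0.24, 0.26 and 0.30. PSMA1 was not called (log2 0.015, adjusted p 0.732) at 141, 138 and 142 CPM in ATG7/SQSTM1 KO, 159.8, 161 and 163 CPM in ATG7 KO and 164, 150.4 and 164 CPM in control libraries. Against control, 5 of the 7 genes fell in ATG7/SQSTM1 KO cells with a median of -0.13, PSMA6 and PSMA7 not being called, and PSMA7 was called lower only without control replicate 2 (log2 -0.15, adjusted p 0.0321). Against ATG7 KO cells 6 of the 7 fell, with a median of -0.46.

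PSMA6 stood apart through its spread. It had 193, 116 and 162 CPM in ATG7/SQSTM1 KO libraries, 264, 205 and 225 CPM in ATG7 KO libraries and 137, 158 and 197 CPM in control libraries, and the ranges of ATG7/SQSTM1 KO and control overlapped. Its coefficient of variation was 24.5% in ATG7/SQSTM1 KO, 13.0% in ATG7 KO and 18.6% in control libraries, where the median over the 38 genes was 2.80% in ATG7/SQSTM1 KO, 2.20% in ATG7 KO and 2.91% in control libraries. It was called in none of the comparisons by edgeR, with adjusted p of 0.111 for ATG7 KO against control, 0.878 for ATG7/SQSTM1 KO against control and 0.0770 between the knockouts. At an unadjusted p under 0.05 only the last passed, and DESeq2 called it there (adjusted p 0.0328), as did edgeR without ATG7/SQSTM1 KO replicate 1 (log2 -0.73, adjusted p 0.0444). The annotation holds a second protein-coding gene on the same strand, AL121594.1, whose exons cover 14.1% of PSMA6's exon length. AL121594.1 had 27.1, 136 and 85.4 CPM in ATG7/SQSTM1 KO, 93.8, 148 and 122 CPM in ATG7 KO and 152, 121 and 76.2 CPM in control libraries, high within each group where PSMA6 was low. Summed, the pair had 220.03, 253 and 248 CPM in ATG7/SQSTM1 KO, 357, 353 and 346 CPM in ATG7 KO and 289, 278 and 273 CPM in control libraries, with no overlap between groups. With the counts of AL121594.1 added, an alternative chosen after the data were seen, PSMA6 rose in ATG7 KO against control (log2 0.33, adjusted p 3.58e-05), fell in ATG7/SQSTM1 KO against control (-0.22, adjusted p 0.00154) and fell in ATG7/SQSTM1 KO against ATG7 KO (-0.55, adjusted p 2.40e-07). How reads were shared between the pair when they were counted was not tested.

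In the beta ring, 5 of 7 genes rose and 1 fell in ATG7 KO against control, with a median of 0.26. The peptidase sites lie in PSMB5 (chymotrypsin-like), PSMB6 (caspase-like) and PSMB7 (trypsin-like). PSMB5 had 218, 196 and 212 CPM in ATG7/SQSTM1 KO, 224, 224 and 216 CPM in ATG7 KO and 245, 215 and 233 CPM in control libraries. Its groups overlapped, and it was not called in ATG7 KO against control (log2 -0.061, 95% interval -0.17 to 0.05, adjusted p 0.309). In ATG7/SQSTM1 KO against control PSMB5 fell by 0.15 on the log2 scale (SE 0.048, adjusted p 0.0322); this call was lost without control replicate 1, without control replicate 3, or without ATG7/SQSTM1 KO replicate 2 or 3, at log2 changes of -0.16 to -0.10 and adjusted p of 0.0666 to 0.111. Without control replicate 2 it was called lower in ATG7 KO against control (log2 -0.11, adjusted p 0.0300).

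PSMB6 had 80.8, 75.3 and 75.8 CPM in ATG7/SQSTM1 KO libraries, 109, 101 and 97.6 CPM in ATG7 KO libraries and 83.7, 85.2 and 82.6 CPM in control libraries. The ATG7 KO libraries were all higher than the rest, and the ATG7/SQSTM1 KO libraries all just under control. Its log2 change was 0.29 (SE 0.041, adjusted p 3.29e-06) in ATG7 KO against control and -0.12 (SE 0.041, adjusted p 0.0303) in ATG7/SQSTM1 KO against control. The small fall was lost without control replicate 1 or 2 or without ATG7/SQSTM1 KO replicate 2 or 3 (log2 -0.11 to -0.10, adjusted p 0.0857 to 0.113). PSMB7 had 205, 221 and 218 CPM in ATG7/SQSTM1 KO, 262, 257 and 242 CPM in ATG7 KO and 194, 198 and 206 CPM in control libraries. It rose in ATG7 KO against control (log2 0.35, SE 0.034, adjusted p 3.10e-08) and, unlike the other beta subunits called, also in ATG7/SQSTM1 KO against control (log2 0.11, SE 0.034, adjusted p 0.0186), where the ranges overlapped. That second rise was lost without control replicate 1 or 2 or without ATG7/SQSTM1 KO replicate 2 or 3 (log2 0.08 to 0.10, adjusted p 0.0586 to 0.108).

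Among the beta subunits without a peptidase site, PSMB3 rose most in ATG7 KO against control (log2 0.42, SE 0.036, adjusted p 2.67e-09), and PSMB1 least (log2 0.094, SE 0.029, adjusted p 0.00916), a call that was lost without ATG7 KO replicate 1 (log2 0.08, adjusted p 0.0513) and with library totals in place of scaling factors (log2 0.05, adjusted p 0.151). PSMB4 went the other way. It had 2179.9, 2152 and 2255.5 CPM in ATG7/SQSTM1 KO libraries, 2171.5, 2203 and 2156 CPM in ATG7 KO libraries and 2388.5, 2345 and 2541 CPM in control libraries. All control libraries were above all libraries of both knockouts, which overlapped each other. PSMB4 changed by a log2 of -0.16 (SE 0.027, adjusted p 4.85e-05) in ATG7 KO against control and of -0.14 (SE 0.027, adjusted p 0.000236) in ATG7/SQSTM1 KO against control, and was not called between the knockouts (log2 0.012, 95% interval -0.04 to 0.07, adjusted p 0.712). PSMB1 fell most among the beta subunits in ATG7/SQSTM1 KO against control (log2 -0.34, SE 0.029, adjusted p 1.05e-08).

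The 6 ATPases of the 19S base, which unfold the substrate and open the gate, moved together. All 6 rose in ATG7 KO against control (median log2 0.31), and all 6 fell in ATG7/SQSTM1 KO against control (median -0.36) and against ATG7 KO (median -0.67). Their summed level was 542 ± 6.71 CPM in ATG7/SQSTM1 KO, 885 ± 13.4 CPM in ATG7 KO and 702 ± 21.0 CPM in control libraries (SD, n = 3 each). Of the 7 roles, the ATPases had the lowest median in both comparisons of ATG7/SQSTM1 KO cells; whether they differ from the other roles was not tested.

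PSMC1 had 108, 112 and 114 CPM in ATG7/SQSTM1 KO, 210.2, 217 and 206 CPM in ATG7 KO and 156, 147 and 163 CPM in control libraries. The 3 groups were fully apart, and the change of -0.92 (SE 0.036, adjusted p 3.69e-15) between ATG7/SQSTM1 KO and ATG7 KO was the lowest of the 38 genes. Against control its log2 change was 0.44 (SE 0.035, adjusted p 5.46e-10) in ATG7 KO and -0.48 (SE 0.036, adjusted p 9.54e-10) in ATG7/SQSTM1 KO. PSMC2 had 125, 135 and 128 CPM in ATG7/SQSTM1 KO libraries, 210.2, 224 and 206 CPM in ATG7 KO libraries and 179, 175 and 189 CPM in control libraries. It fell by 0.48 on the log2 scale (SE 0.037, adjusted p 3.53e-09) in ATG7/SQSTM1 KO against control and rose by 0.24 (SE 0.037, adjusted p 1.12e-05) in ATG7 KO against control, again with the groups apart. PSMC4 had 86.0, 88.7 and 82.1 CPM in ATG7/SQSTM1 KO, 131, 133 and 136 CPM in ATG7 KO and 97.5, 95.9 and 96.9 CPM in control libraries. Its rise of 0.46 (SE 0.034, adjusted p 1.48e-10) in ATG7 KO cells was the highest among the ATPases, and its fall of 0.18 on the log2 scale (SE 0.034, adjusted p 0.000275) in ATG7/SQSTM1 KO against control the smallest. PSMC5 had 74.0, 76.5 and 73.4 CPM in ATG7/SQSTM1 KO libraries, 125, 121 and 119.7 CPM in ATG7 KO libraries and 100.2, 91.2 and 97.6 CPM in control libraries. It changed by 0.34 (SE 0.037, adjusted p 8.37e-08) in ATG7 KO against control and -0.37 (SE 0.038, adjusted p 9.18e-08) in ATG7/SQSTM1 KO against control. PSMC3 and PSMC6 moved the same way, with log2 changes of 0.22 and 0.28 in ATG7 KO against control and of -0.34 and -0.24 in ATG7/SQSTM1 KO against control.

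Some of these genes share sequence with others, and the strand setting of the counting is not given in the sources used here. Exons of NRDE2 lie opposite 75.8% of PSMC1's exon length, and NRDE2 changed by log2 values of 0.20 in ATG7 KO against control, -0.35 in ATG7/SQSTM1 KO against control and -0.55 between the knockouts. The pseudogene PSMC1P1 changed by 0.44, -0.35 and -0.79 in the same order, and all 13 named PSMC1 pseudogenes together held 6.71% as many counts as PSMC1. FTSJ3 lies opposite 19.5% of PSMC5's exon length and changed by 0.42, -0.31 and -0.73. Reads from an overlap or a copy cannot be told apart here, and the values of PSMC1 and PSMC5 are uncertain to that extent.

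The non-ATPase subunits of the base are the scaffolds PSMD1 and PSMD2 and the ubiquitin receptors PSMD4 and ADRM1. ADRM1, the human RPN13, had 83.6, 83.0 and 84.2 CPM in ATG7/SQSTM1 KO, 123, 128 and 124 CPM in ATG7 KO and 93.1, 89.7 and 97.5 CPM in control libraries. All ATG7 KO libraries were above and all ATG7/SQSTM1 KO libraries below the control libraries. Its log2 change was 0.42 (SE 0.035, adjusted p 1.38e-09) in ATG7 KO against control, -0.16 (SE 0.035, adjusted p 0.000989) in ATG7/SQSTM1 KO against control and -0.58 (SE 0.035, adjusted p 6.21e-12) between the knockouts. LAMA5 lies opposite 11.4% of ADRM1's exon length and changed by 1.06, 0.61 and -0.44 in that order. PSMD4, the human RPN10, had 1057, 1073 and 1141 CPM in ATG7/SQSTM1 KO libraries, 1157, 1149.6 and 1121 CPM in ATG7 KO libraries and 1319, 1252 and 1299 CPM in control libraries. Both knockouts were below control in every library and overlapped each other. PSMD4 changed by -0.18 (SE 0.028, adjusted p 1.72e-05) in ATG7 KO against control and by -0.24 (SE 0.028, adjusted p 6.65e-07) in ATG7/SQSTM1 KO against control, so the ubiquitin receptors moved in opposite directions in ATG7 KO cells. Between the knockouts PSMD4's change of -0.067 (SE 0.028, adjusted p 0.0432) was at the edge of the threshold and was lost without ATG7/SQSTM1 KO replicate 1 or 2 or without ATG7 KO replicate 1 or 2 (log2 -0.07 to -0.05, adjusted p 0.0713 to 0.150). PSMD2 rose by 0.41 and PSMD1 by 0.24 in ATG7 KO against control, and they changed by -0.15 and -0.10 in ATG7/SQSTM1 KO against control.

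All 8 lid genes rose in ATG7 KO against control (median log2 0.27) and all 8 fell in ATG7/SQSTM1 KO against ATG7 KO (median -0.46). In ATG7/SQSTM1 KO against control the lid was divided, with 4 genes lower, 2 higher and PSMD6 and PSMD14 not called. PSMD14, the deubiquitinase RPN11 that cuts ubiquitin chains off the substrate, had 129, 133 and 127 CPM in ATG7/SQSTM1 KO, 151, 149.8 and 140.0 CPM in ATG7 KO and 121, 121 and 126 CPM in control libraries. The control libraries lay lowest, ATG7/SQSTM1 KO just above them and ATG7 KO highest. Its change was 0.26 (SE 0.034, adjusted p 1.04e-06) in ATG7 KO against control and was not called in ATG7/SQSTM1 KO against control by edgeR (log2 0.083, adjusted p 0.0598), where DESeq2 called it higher (adjusted p 0.0339). Without control replicate 3 edgeR called it as well (log2 0.10, adjusted p 0.0481).

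PSMD12, a scaffold subunit of the lid, had 92.0, 98.4 and 93.3 CPM in ATG7/SQSTM1 KO libraries, 163, 156 and 157 CPM in ATG7 KO libraries and 118, 113 and 108 CPM in control libraries. The groups were apart, with changes of 0.49 (SE 0.036, adjusted p 2.13e-10) in ATG7 KO against control, -0.26 (SE 0.037, adjusted p 9.42e-06) in ATG7/SQSTM1 KO against control and -0.74 (SE 0.037, adjusted p 1.97e-13) between the knockouts. PSMD11, another scaffold subunit, had 142, 143 and 138 CPM in ATG7/SQSTM1 KO, 205, 203 and 205 CPM in ATG7 KO and 188, 186 and 191 CPM in control libraries. It rose only slightly in ATG7 KO cells (log2 0.12, SE 0.027, adjusted p 0.000913) and fell further in ATG7/SQSTM1 KO cells (log2 -0.42, SE 0.028, adjusted p 1.38e-10 against control). PSMD7, the partner of PSMD14, had 143, 141 and 141 CPM in ATG7/SQSTM1 KO libraries, 152, 152 and 149 CPM in ATG7 KO libraries and 127.5, 133 and 126 CPM in control libraries. It rose in both knockouts against control, by 0.23 (SE 0.030, adjusted p 9.85e-07) in ATG7 KO and 0.14 (SE 0.030, adjusted p 0.000836) in ATG7/SQSTM1 KO, with no overlap with the control libraries. PSMD8 had 177, 192 and 187 CPM in ATG7/SQSTM1 KO, 212, 209 and 213 CPM in ATG7 KO and 174, 170.2 and 177 CPM in control libraries. It rose by 0.28 (SE 0.031, adjusted p 9.37e-08) in ATG7 KO and by 0.090 (SE 0.031, adjusted p 0.0239) in ATG7/SQSTM1 KO, where the ranges overlapped control. That second call was lost without control replicate 2 or without ATG7/SQSTM1 KO replicate 2 or 3 (log2 0.06 to 0.08, adjusted p 0.0831 to 0.160). PSMD3 and PSMD13 fell in ATG7/SQSTM1 KO against control by log2 changes of -0.30 and -0.27.

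**Figure D3:**
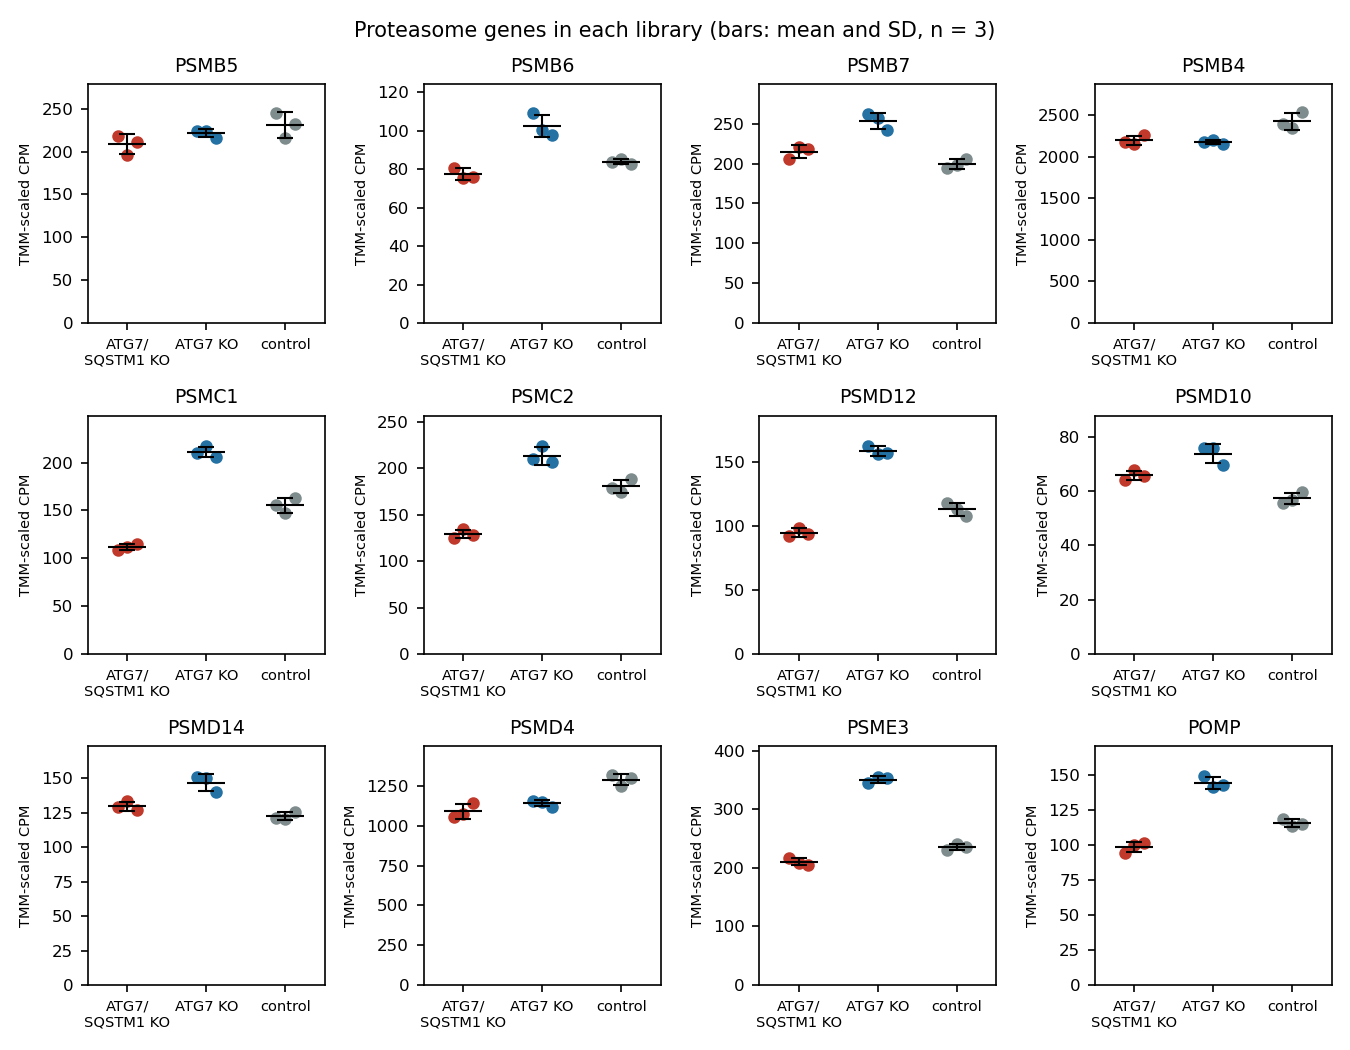
CPM of 12 proteasome genes in each library, as points, with bars for the mean and SD of the 3 libraries of a group and axes from 0. For PSMC1 and PSMC2 the 3 groups are fully apart with ATG7/SQSTM1 KO lowest, for PSMB4 and PSMD4 both knockouts lie below control, and for PSMD10 both lie above it.

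All 4 assembly chaperones rose in ATG7 KO against control (median log2 0.38) and all 4 fell in ATG7/SQSTM1 KO against ATG7 KO (median -0.48). POMP, the maturation factor of the 20S core, had 94.6, 100.4 and 102 CPM in ATG7/SQSTM1 KO libraries, 149, 141 and 143 CPM in ATG7 KO libraries and 119, 113 and 115 CPM in control libraries. ATG7 KO was highest and ATG7/SQSTM1 KO lowest, with no overlap. Its changes were 0.32 (SE 0.035, adjusted p 7.97e-08) in ATG7 KO against control and -0.23 (SE 0.035, adjusted p 2.35e-05) in ATG7/SQSTM1 KO against control. PSMD5, PSMD9 and PSMD10 are chaperones that guide the assembly of the base and leave the finished particle. PSMD10 (gankyrin) had 64.1, 67.7 and 65.6 CPM in ATG7/SQSTM1 KO, 75.8, 75.9 and 69.7 CPM in ATG7 KO and 55.6, 56.7 and 59.6 CPM in control libraries. Both knockouts were above control in every library, with changes of 0.37 (SE 0.042, adjusted p 1.53e-07) in ATG7 KO and 0.20 (SE 0.042, adjusted p 0.000619) in ATG7/SQSTM1 KO, the highest rise of the 38 genes in that comparison. PSMD5 and PSMD9 rose in ATG7 KO against control (log2 0.42 and 0.40) and were not called in ATG7/SQSTM1 KO against control (log2 -0.022 and -0.11, adjusted p 0.731 and 0.177). All 6 ATPases fell in ATG7/SQSTM1 KO against control, while of the 3 base chaperones PSMD10 rose and the others were not called; a difference between these groups of genes was not tested.

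The activators PSME3 (PA28-gamma), a nuclear cap that opens the core without ubiquitin, and PSME4 (PA200), a large single-chain cap, are described together. PSME3 had 217, 209 and 205 CPM in ATG7/SQSTM1 KO libraries, 344, 354 and 352 CPM in ATG7 KO libraries and 229.8, 241 and 236 CPM in control libraries. The ATG7 KO libraries stood far above the rest, and the ATG7/SQSTM1 KO libraries below control. Its rise of 0.57 (SE 0.028, adjusted p 1.95e-13) in ATG7 KO against control was the largest of the 38 genes, a 1.49-fold level. It fell by 0.16 on the log2 scale (SE 0.028, adjusted p 9.03e-05) in ATG7/SQSTM1 KO against control and by 0.74 on the log2 scale (SE 0.028, adjusted p 3.31e-15) against ATG7 KO. BECN1 lies opposite 5.82% of PSME3's exon length and changed by 0.30, -0.19 and -0.49 in the order of the comparisons above. PSME4 had 177, 176 and 179 CPM in ATG7/SQSTM1 KO, 197, 210.3 and 194 CPM in ATG7 KO and 207, 209 and 206 CPM in control libraries. ATG7 KO and control overlapped, and the gene was not called between them (log2 -0.048, 95% interval -0.11 to 0.02, adjusted p 0.189); without ATG7 KO replicate 2 it was called lower (log2 -0.08, adjusted p 0.0377). PSME4 fell in ATG7/SQSTM1 KO against control (log2 -0.22, SE 0.030, adjusted p 4.18e-06).

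Levels per length were compared as CPM per kilobase of exons, taken from GENCODE 29 on GRCh38. In control libraries the 38 genes had a median of 42.9 CPM per kilobase, where the 14533 tested protein-coding genes had a median of 4.55 and a 90th percentile of 27.8. Of the 38, 37 lay above that median and 25 above the 90th percentile. PSMB4, at 1124 ± 47.7 CPM per kilobase (SD, n = 3), and PSMD4, at 426 ± 11.4, were the highest in every group and the only ones above the 99th percentile of 193. The next were PSMB5 at 131 ± 8.45 and PSMA7 at 129 ± 11.9, which did not differ beyond their spread. The lowest were PSMC6 at 10.3 ± 0.220, PSMD6 at 7.21 ± 0.424 and PSMD9 at 2.52 ± 0.156. Although the beta subunits enter the core in equal numbers, the highest and lowest RNA level among them differed 19.4-fold, against 5.11-fold in the alpha ring and 4.96-fold among the ATPases. PSMB4 alone set that range, as the other beta genes lay between 57.9 (PSMB6) and 131 (PSMB5) CPM per kilobase. The range was 10.4-fold among the base non-ATPases, which include PSMD4, and 32.2-fold among the assembly chaperones, which include PSMD9. Of the 37 steps between neighbours in the order, 21 were within the spread of the libraries. With the longest transcript as length, 3 genes moved by more than 5 ranks and PSMB4 and PSMD4 kept the first places. The fold ranges above hold for the exon union only. By the longest transcript, control levels ran from 7.25 (PSMD9) to 81.0 (POMP) CPM per kilobase among the assembly chaperones. They ran from 26.2 (PSMC6) to 60.8 (PSMC3) among the ATPases and from 61.1 (ADRM1) to 956 (PSMD4) among the base non-ATPases. PSMB2, at 70.6, was then the lowest beta gene, and PSMD5, at 22.3, lay below PSMC6.

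**Figure D4:**
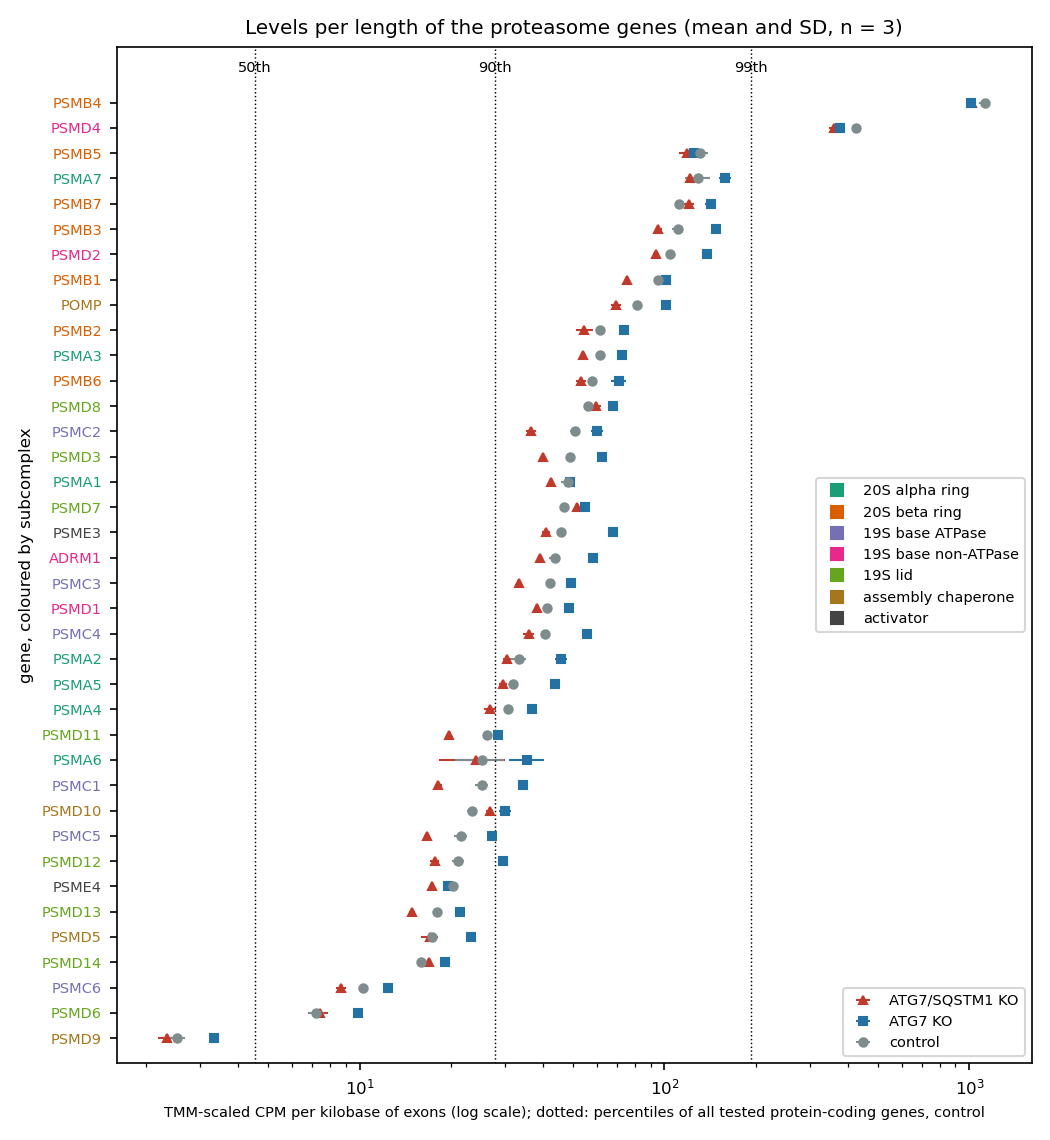
Level per length of the 38 proteasome genes in the 3 groups, as mean and SD of 3 libraries on a log axis, ordered by the control level; dotted lines mark the 50th, 90th and 99th percentile of all tested protein-coding genes in control libraries. PSMB4 (1124 in control) and PSMD4 (426) stand apart from the other 36, and ATG7 KO squares lie right of control circles for most genes.

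PSMD4 and PSMB4, the highest proteasome genes and the only ones called lower in ATG7 KO against control, lie close together on chromosome 1, PSMD4 at chr1:151254703-151267479 (+) and PSMB4 at chr1:151399534-151401944 (+) of GRCh38. Together they span 147 kb. The 38 genes lie on 16 chromosomes, with 7 on chromosome 17 and 5 on chromosome 14. Within 500 kb of the span, a window chosen after the data were seen, 34 other protein-coding genes were tested. Their median control level was 23.9 CPM per kilobase, and 16 of them (47.1%) lay above the 90th percentile of all tested protein-coding genes. Around each of the other 36 proteasome genes the neighbours' median was between 0.149 and 17.0. In ATG7 KO against control 24 of the 34 neighbours (70.6%) were called lower and 3 (8.82%) higher, with a median log2 change of -0.24. Of all 18847 tested genes, a wider set that is not limited to protein-coding genes, 28.3% were called lower and 28.4% higher. Some windows with fewer genes around other proteasome genes also had shares called lower above that of all tested genes. Among them were 3 of 4 neighbours around PSMB1, 6 of 9 around PSMD11 (median log2 change -0.43) and 2 of 3 around PSMD14. The larger window around PSMB6 had 14 of 30 (46.7%). In ATG7/SQSTM1 KO against control 16 were called lower and 6 higher (median -0.09), and in ATG7/SQSTM1 KO against ATG7 KO 6 were called lower and 19 higher (median 0.21). This describes the window and is no test of it. DNA copy number was not tested.

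**Figure D5:**
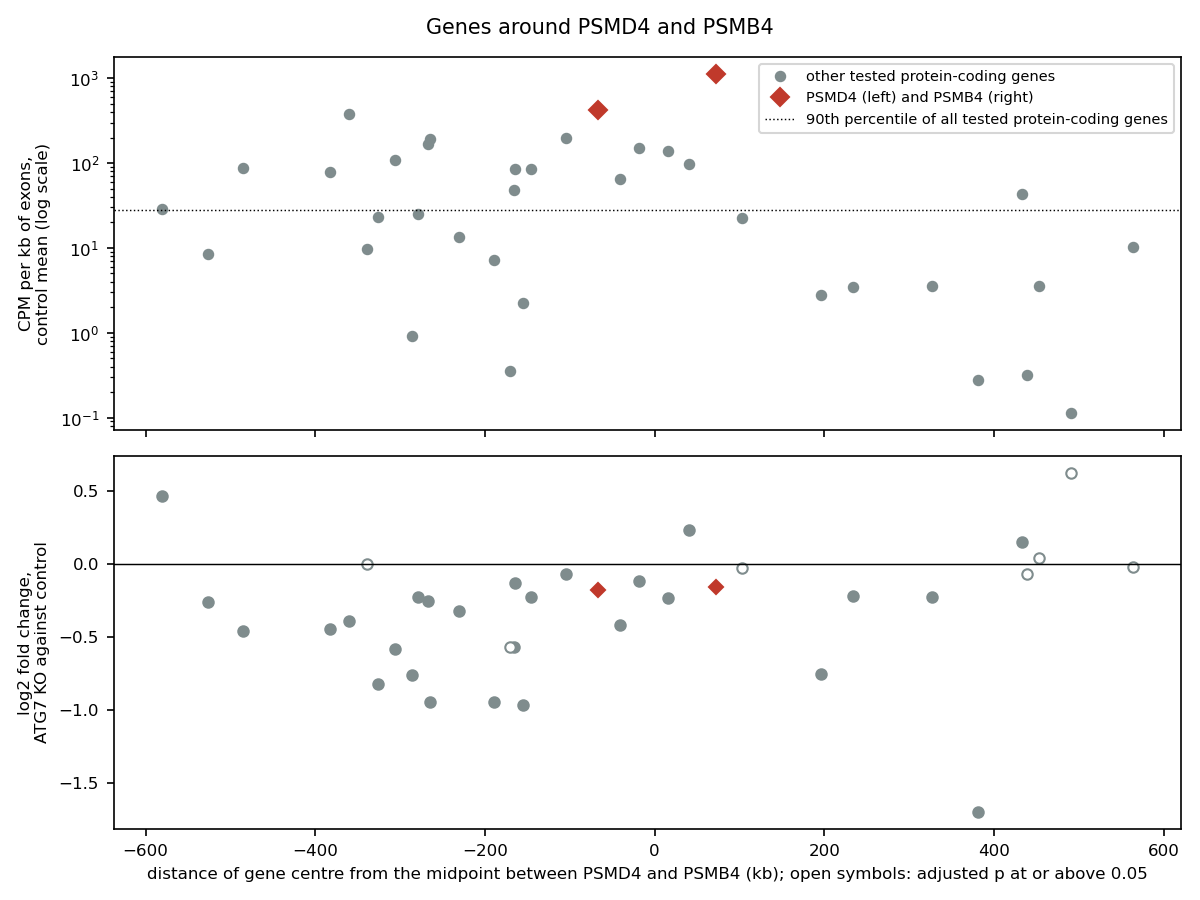
Tested protein-coding genes within 500 kb of the span of PSMD4 and PSMB4 (red), by the distance of the gene's centre from the midpoint of the pair; the upper panel shows the mean control level per kilobase on a log axis and the lower panel the log2 fold change in ATG7 KO against control, with open symbols for an adjusted p at or above 0.05. Of the 34 neighbours, 16 lie above the dotted 90th percentile and 24 were called lower.

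Genes around the constitutive proteasome were read from lists. Beside the counts in these lists stand the shares of all tested genes called. They were 28.4% higher and 28.3% lower in ATG7 KO against control and 19% higher and 19.6% lower in ATG7/SQSTM1 KO against control. Between the knockouts they were 30.5% higher and 29.9% lower. The inducible subunits PSMB8, PSMB9 and PSMB10, which replace the catalytic beta subunits in immune settings, and their cap PSME1 and PSME2 moved in the same direction as most constitutive genes in both comparisons with ATG7 KO cells: all 5 were higher in ATG7 KO against control, with a median log2 change of 0.90 beside 0.29 for the 38 genes, and all 5 lower in ATG7/SQSTM1 KO against ATG7 KO, with a median of -0.88 beside -0.48. PSMB8 and PSMB9 were called lower in ATG7/SQSTM1 KO against control (log2 -0.10 and -0.18), where 28 of the 38 constitutive genes fell. In that comparison PSME1 was called higher (log2 0.12, adjusted p 0.00807 by edgeR), and PSMB10 (log2 0.22) and PSME2 (log2 -0.07) were not called. The difference between these lists was not tested. PSMB8 had 45.01, 45.1 and 43.8 CPM in ATG7/SQSTM1 KO, 91.6, 88.7 and 89.3 CPM in ATG7 KO and 47.6, 47.1 and 49.2 CPM in control libraries, while PSMB5, which it replaces, was not called in ATG7 KO against control. PSMB9 averaged 22.0 ± 1.36 CPM in ATG7/SQSTM1 KO, 56.7 ± 3.35 CPM in ATG7 KO and 24.9 ± 2.15 CPM in control libraries (SD, n = 3 each). The tissue-restricted PSMA8 and PSMB11 were under 0.23 CPM in every library and were not tested.

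Of the 4 PSMG chaperones, which start the alpha ring, PSMG1 and PSMG2 rose in ATG7 KO against control (log2 0.21 and 0.14) and all 4 fell in ATG7/SQSTM1 KO against ATG7 KO. PSMG1 averaged 100.03 ± 1.77 CPM in ATG7/SQSTM1 KO, 152 ± 4.26 CPM in ATG7 KO and 131 ± 4.91 CPM in control libraries (SD, n = 3 each). For these lists, 28.4% of all tested genes were called higher in ATG7 KO against control and 29.9% lower in ATG7/SQSTM1 KO against ATG7 KO. Of 10 proteins that bind the proteasome and adjust it, 6 rose in ATG7 KO against control and 8 fell in ATG7/SQSTM1 KO against ATG7 KO. The deubiquitinase USP14 led both, with log2 changes of 0.30 and -0.50. Of 11 shuttle factors and genes of the VCP unfoldase complex, 9 rose in ATG7 KO against control, and 9 fell and 1 rose in ATG7/SQSTM1 KO against ATG7 KO. VCP averaged 383 ± 3.70 CPM in ATG7/SQSTM1 KO, 614 ± 8.11 CPM in ATG7 KO and 540.3 ± 5.82 CPM in control libraries, with log2 changes of 0.18 in ATG7 KO against control and -0.50 in ATG7/SQSTM1 KO against control.

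Of 9 genes of NFE2L1, its relatives and the enzymes that process it, 5 rose in ATG7 KO against control and 5 fell in ATG7/SQSTM1 KO against ATG7 KO. Over all tested genes 28.4% were called higher in the first of these comparisons and 29.9% lower in the second. NFE2L1 itself averaged 156 ± 2.58 CPM in ATG7/SQSTM1 KO, 211 ± 2.30 CPM in ATG7 KO and 168 ± 3.28 CPM in control libraries. It rose by a log2 of 0.33 in ATG7 KO against control (adjusted p 1.89e-09) and fell by 0.43 in ATG7/SQSTM1 KO against ATG7 KO (adjusted p 1.78e-11). Against control, NFE2L1 was also called lower in ATG7/SQSTM1 KO (log2 -0.10). DDI2, the protease that cuts NFE2L1 into its active form, was higher in ATG7 KO against control (log2 0.11). It was lower in ATG7/SQSTM1 KO against control (log2 -0.17) and against ATG7 KO (log2 -0.29). In ATG7/SQSTM1 KO against control 4 of the 9 genes were called lower and 3 higher, with a median of -0.013. There 19.6% of all tested genes were called lower and 19% higher. The higher ones of the 9 were NFE2L2 (log2 0.13), NFE2L3 (log2 0.18) and MAFF (log2 0.50). MAFF was low, at 4.90, 3.71 and 2.995 CPM in ATG7/SQSTM1 KO and 2.90, 2.998 and 2.34 CPM in control libraries. These ranges overlapped. Over 6 ubiquitin and E1 enzyme genes the median log2 change in ATG7 KO against control was 0.0029, near that of all tested genes, and the E1 enzyme gene UBA1 rose (log2 0.13).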

How the data were processed

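RNA of 9 DMS273 libraries was measured. Per the labels' protocols, rRNA was depleted and dUTP-marked, strand-specific libraries were made; HISAT2 and hg38 are named in the submitters' processing notes. What program, annotation and strand rule assigned reads to genes was not given in the sources used here. Raw counts per gene were deposited by the authors in 1 table with 67140 genes, in which 362598 missing cells were read as 0; 1 unlabelled column of zeros was not used. Of the 38 genes, PSMB1, PSMB3 and PSMC4 are also listed under a second ID without counts. Library totals ran from 28675576 to 34222098.

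Groups came from the genotype labels. The test was edgeR 4.0.16 in R 4.3.3 (filterByExpr minimum count 10; TMM, factors 0.977 to 1.01; robust quasi-likelihood over 9 libraries, 6 residual degrees of freedom), with Benjamini-Hochberg adjustment over 18847 genes and a threshold of 0.05. The fit was tested on simulated data. DESeq2 1.42.0 and other scalings, filters and left-out libraries were alternatives. CPM per kilobase used the exon union of GENCODE 29 (GRCh38), to which 58503 IDs matched; promoters came from RefSeq (GRCh38.p14). Library pairs within a group differed beyond sampling noise (chi-square per degree of freedom 4.47 to 7.03), so none was counted as a duplicate.

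Values in every library are given for the catalytic subunits, PSMD14, PSMD4, ADRM1, POMP, PSME3 and PSME4, and for the 4 called genes with the largest rise and the 4 with the largest fall in each comparison; genes not called are named, and of related lists up to 4 genes with the smallest p. PSMA1, PSMA6, PSMB4, PSMD8 and the neighbours of PSMD4 received further values after these were seen. The genes, lists, motifs and tests were chosen with earlier results of these data known.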

Additional observations from a re-analysis of the deposited data

How the results depend on the processing

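The counts of proteasome genes past the threshold stayed within 1.5 times the reported ones in all alternatives run, with 1 exception. With each library left out in turn, 31 to 32 genes rose and 2 to 3 fell in ATG7 KO against control, 25 to 28 fell in ATG7/SQSTM1 KO against control, and 34 to 35 fell in ATG7/SQSTM1 KO against ATG7 KO. The exception was the 4 genes that rose in ATG7/SQSTM1 KO against control, where the range was 2 to 5, with 2 genes without control replicate 2, ATG7/SQSTM1 KO replicate 2 or ATG7/SQSTM1 KO replicate 3. Those fits hold fewer libraries, and the cause was not tested.

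The libraries' replicate numbers did not pair the samples: deviations from the group means correlated at -0.061 to 0.023 between equal numbers. With the replicate number as a block, 32 genes rose and 2 fell in ATG7 KO against control, 4 rose and 27 fell in ATG7/SQSTM1 KO against control, and 35 fell in ATG7/SQSTM1 KO against ATG7 KO. The block ended 2 calls, PSMA2 in ATG7/SQSTM1 KO against control (adjusted p 0.0728) and PSMD4 in ATG7/SQSTM1 KO against ATG7 KO (adjusted p 0.0524), and PSMB5 became called lower between the knockouts (adjusted p 0.0332); no other proteasome gene's call changed.

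Of single-gene log2 changes, 648 of 684 with a library left out and 892 of 912 under other alternatives kept their direction and side of the threshold. Those that turned sign were all small and not called. PSMA1 in ATG7 KO against control came to -0.03 both with library totals alone and without control replicate 2 (-0.028 and -0.025), with 0.046 as the highest value on leaving out a library. In ATG7/SQSTM1 KO against control PSMA6 came to 0.10 without control replicate 3 and 0.12 without ATG7/SQSTM1 KO replicate 2, with -0.23 as its lowest value, and PSMD5 to 0.01 without control replicate 2 and 0.03 without ATG7/SQSTM1 KO replicate 3 (0.011 and 0.027), with -0.062 as its lowest. PSMB4 in ATG7/SQSTM1 KO against ATG7 KO came to -0.0021 without ATG7 KO replicate 3 and -0.015 without ATG7/SQSTM1 KO replicate 3, with 0.020 as its highest; the cause was not tested. With library totals alone PSME4 was also called lower in ATG7 KO against control (-0.09, adjusted p 0.0139), and PSMD7 (-0.05, adjusted p 0.127) and PSMD4 (-0.03, adjusted p 0.388) were not called between the knockouts. Without the low-count filter PSMB5 and PSMB6 were not called in ATG7/SQSTM1 KO against control (adjusted p 0.0568 and 0.0520). PSMD9, the gene with the fewest counts and so the least precise in counting terms, had 19.1 to 29.4 CPM.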
